A study of Homo sapiens with 8 samples.

Results

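Hepatic and intestinal lineage genes were examined for acetylation of histone H3 at lysine 27 (H3K27ac) in human pancreatic progenitors (PPs). The set held 10 of the 20033 protein-coding genes of the annotation, namely AFP, ALB, APOA1, APOB, TTR, AHSG, SERPINA1, CDX2, VIL1 and PHGR1. The genes were chosen by name with earlier results of these same libraries in view, so every difference at them is given as a description and no test was run on them. Every H3K27ac peak in each gene body and the 50 kb on either side was taken from each library, and genes without a peak were kept.

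The PPs came from MEL1 human embryonic stem cells, an established line. The study's methods give MEL1 as the reporter genotype INS GFP/W (GFP placed at the INS gene) but do not name the line behind each library. The PPs were grown in a basal medium called EF6, which holds B27, EGF, bFGF and 616452, an inhibitor of TGFβ signalling. Cells in this medium received either DMSO, the solvent control, or 1 μM I-BET151 for 7 days. Chromatin immunoprecipitation with sequencing (ChIP-seq) with 1 antibody against H3K27ac gave 2 DMSO libraries and 2 I-BET151 libraries, and the 4 matching input libraries were not analysed here other than through the peak callers' values. The labels number the replicates but do not say whether they came from separate cultures or differentiations.

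H3K27ac is found at active promoters and enhancers. Bromodomain and extraterminal (BET) proteins bind acetylated lysines there, and I-BET151 occupies their bromodomains. Liver, intestine and pancreas all arise from the gut endoderm. AFP, ALB, TTR, AHSG and SERPINA1 encode proteins that hepatocytes secrete into plasma, APOA1 and APOB are the main proteins of high- and low-density lipoproteins in both liver and intestine, CDX2 is the homeobox regulator of intestinal identity, and VIL1 and PHGR1 are expressed in gut epithelium.

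Peak numbers were 13606 and 14248 in DMSO (replicates 1 and 2) and 12887 and 12312 in I-BET151. The ChIP depth recovered from the peak values lay between 7.76 and 9.84 M reads, and the weakest listed summit held 14 to 17 reads. A peak was listed at a q-value of 0.05 or less for its summit against the input, and fold enrichment is the summit height over the input level, so a region missing from a list is one where no peak passed the threshold and not one shown to lack acetylation. The pancreatic progenitor markers PDX1, NKX6-1, SOX9, FOXA2, ONECUT1, GATA4, GATA6 and MNX1 each had a peak within 3 kb of their start in all 4 libraries, while 0 of 5 pluripotency genes (POU5F1, NANOG, ZFP42, DPPA4 and TDGF1) had any peak in their window. Fewer cells carrying a mark and less of the mark per cell cannot be told apart in such bulk libraries.

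At 4 of these genes a region next to the gene was listed in the DMSO libraries and missing from 1 or both I-BET151 libraries. The reference sequence at these regions is shown (at PHGR1, that of the tallest, and at SERPINA1, a stretch that overlaps the region in part). The sequences run 5′ to 3′ in the direction of the gene, were read from the hg38 genome, and carry each CpG dinucleotide in capitals, because CpG number is a property the choice of genes did not use. The AHSG, PHGR1 and VIL1 sequences are the 300 bases around the summit, at chr3:186599585-186599884 (plus strand), chr15:40347248-40347547 (plus strand) and chr2:218419618-218419917 (plus strand). The SERPINA1 sequence is the 200 bases just upstream of the outermost start, chr14:94390694-94390893 (minus strand), and leaves out the summit of the region.
AHSG: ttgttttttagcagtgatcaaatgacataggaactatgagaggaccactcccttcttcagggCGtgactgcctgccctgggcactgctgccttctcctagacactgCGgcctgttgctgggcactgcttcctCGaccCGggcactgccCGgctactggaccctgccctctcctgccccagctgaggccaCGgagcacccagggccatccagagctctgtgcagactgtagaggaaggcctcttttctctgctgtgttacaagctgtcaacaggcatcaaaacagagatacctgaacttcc
PHGR1: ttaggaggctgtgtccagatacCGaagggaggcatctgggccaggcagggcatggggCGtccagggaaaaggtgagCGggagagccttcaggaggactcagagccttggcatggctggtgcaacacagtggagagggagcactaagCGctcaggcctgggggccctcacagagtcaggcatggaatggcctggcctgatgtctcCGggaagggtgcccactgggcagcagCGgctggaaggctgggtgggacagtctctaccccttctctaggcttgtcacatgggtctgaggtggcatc
VIL1: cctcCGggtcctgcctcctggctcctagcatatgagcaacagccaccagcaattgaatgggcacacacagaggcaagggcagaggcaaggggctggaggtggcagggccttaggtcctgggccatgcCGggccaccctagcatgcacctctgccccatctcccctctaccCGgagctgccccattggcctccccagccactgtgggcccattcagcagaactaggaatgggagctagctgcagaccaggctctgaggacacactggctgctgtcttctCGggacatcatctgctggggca
SERPINA1: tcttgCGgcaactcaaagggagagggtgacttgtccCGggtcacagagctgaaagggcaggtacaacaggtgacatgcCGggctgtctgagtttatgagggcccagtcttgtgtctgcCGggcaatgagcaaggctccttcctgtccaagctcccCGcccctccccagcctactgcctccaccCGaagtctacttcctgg
The AHSG, PHGR1 and VIL1 windows held 6, 6 and 4 CpGs, and the median over all regions was 27. The 200 bases at SERPINA1 held 6, and the 300 bases around the summit there, which are not printed, held 7.

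A peak lay in the window of 7 of the 10 genes. The length covered by peaks was lower in both I-BET151 libraries than in both DMSO libraries at 5 of these 7 (APOA1, APOB, AHSG, VIL1 and PHGR1), higher in both at 0, and overlapping between the groups at 2 (SERPINA1 and CDX2). Over all 15190 protein-coding genes with a peak in the window, 44.4% were lower and 12.5% higher by the same comparison. The median difference was -0.51 kb over the 7 genes and -0.09 kb over all genes with a peak. Since the genes were chosen with this contrast in view, nothing is read from their count against that background, and with 2 libraries a group the smallest two-sided exact permutation p is 0.333.

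**Figure D1:**
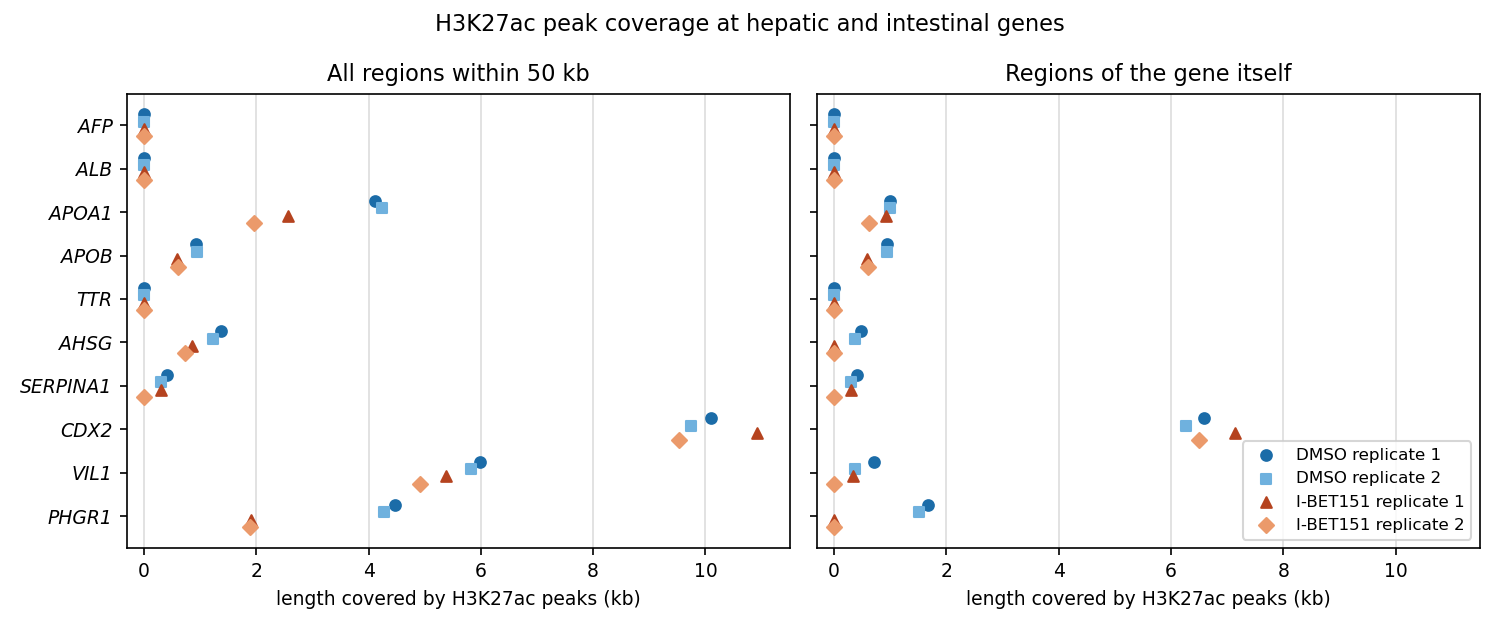
Length covered by H3K27ac peaks (kb, horizontal axis) at each gene in each of the 4 libraries, for the whole window (left) and for regions assigned to the gene itself (right), 1 point per library. The PHGR1 points of both DMSO libraries sit at 4.48 and 4.28 kb and those of both I-BET151 libraries at 1.899 and 1.889 kb, whereas the CDX2 points of the groups overlap.

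Where peaks of different libraries overlapped by 1 bp or more they were joined, which gave 40 regions in these windows. A region was assigned to the gene itself where the nearest protein-coding start was its own or the summit lay in its body, which held for 17 regions, and the other 23 belonged to neighbours. Of the 40 regions, 22 were listed in all 4 libraries, 8 were listed in both DMSO libraries and neither I-BET151 library (lost), and 0 were listed in both I-BET151 libraries alone (gained). Over all 15752 regions 8.6% were lost and 2.81% gained. The 8 lost regions comprised 4 of the genes' own, at AHSG and PHGR1, and 4 at neighbours. The number of the 17 own regions listed was 16 and 15 in the DMSO libraries, and 12 and 9 in the I-BET151 libraries. The I-BET151 lists were shorter, and the matching shares over all regions were not taken, so nothing is read from these numbers.

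**Figure D2:**
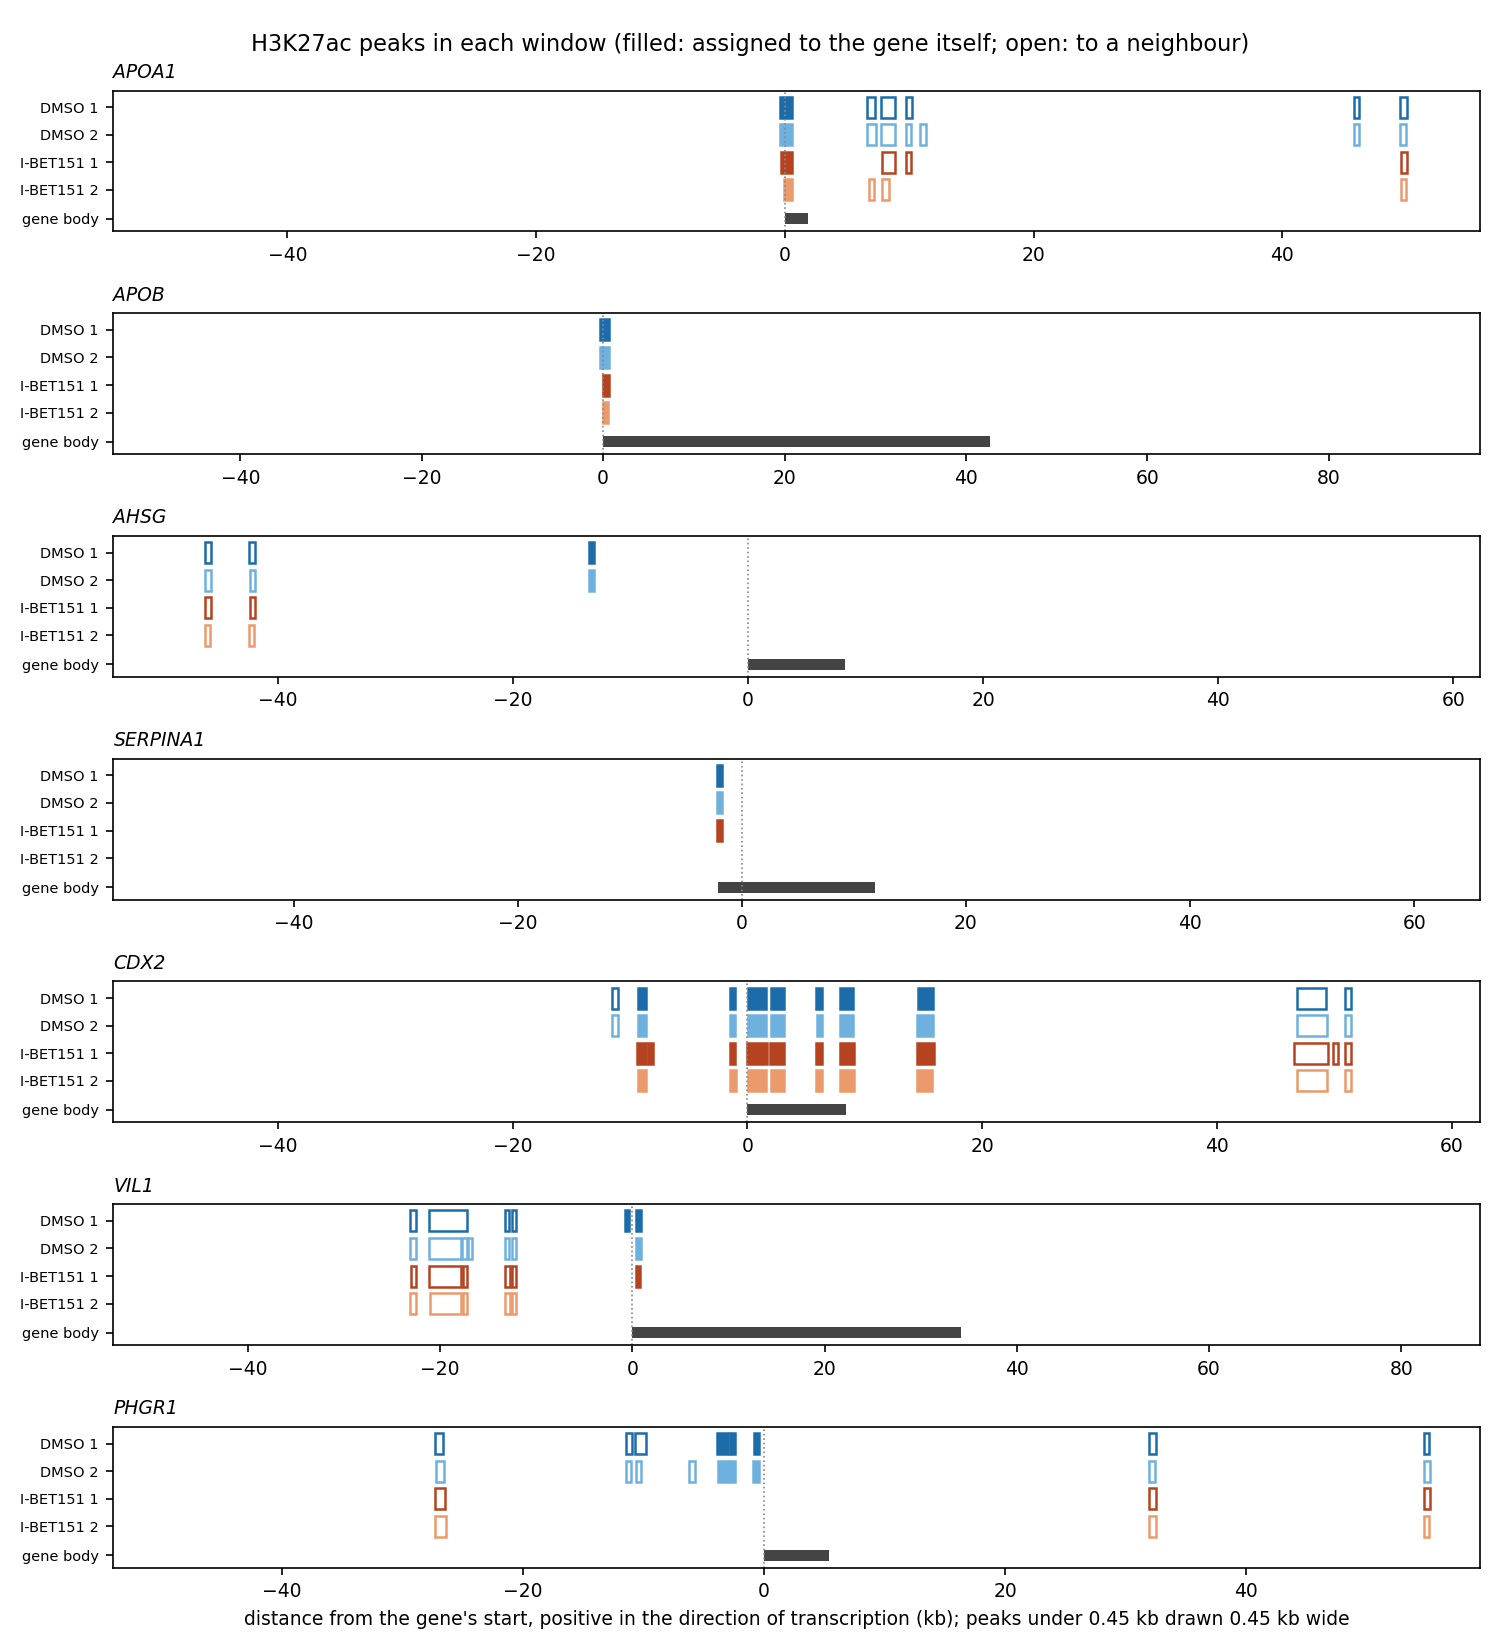
Peaks of each library (rows) by distance from the gene's start (kb, horizontal axis, positive in the direction of transcription) at the 7 genes with a peak, filled where assigned to the gene itself and open where assigned to a neighbour, with the gene body in grey. The 3 filled PHGR1 regions and the filled AHSG region are present in both DMSO rows and absent from both I-BET151 rows, while all 4 rows keep 7 of the 8 CDX2 regions.

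The fetal serum protein gene AFP and the albumin gene ALB, which lie side by side on chromosome 4, had no peak in any library. TTR, which encodes the thyroxine and retinol carrier transthyretin, on chromosome 18, likewise had none. The nearest peak of any library lay 96.9 kb from the ALB body and 131 kb from the AFP body, next to ANKRD17, and was listed in DMSO replicate 1 only. The nearest region to TTR lay 58.4 kb away next to DSG2 and was listed in all 4 libraries. The mark was therefore below the listing threshold at these 3 genes in DMSO and in I-BET151 alike, and no difference was measurable there.

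APOA1 encodes the main protein of high-density lipoprotein and lies on chromosome 11 (116835751 to 116837622, minus strand) beside APOC3, APOA4 and APOA5. Peaks in its window covered 4.12 and 4.24 kb in the DMSO libraries and 2.57 and 1.96 kb in the I-BET151 libraries. The group means were 4.18 ± 0.0863 kb and 2.27 ± 0.433 kb (SD, n = 2), a difference of -1.91 kb, and the groups did not overlap.

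The region at the APOA1 start itself (chr11:116837034-116838037, summit in a coding exon 250 bp into the gene) was listed in all 4 libraries. Its peaks were 1004 and 999 bp wide in DMSO and 921 and 625 bp wide in I-BET151. The summit stood at 21.0 and 17.4 reads-per-million of ChIP depth (RPM) in DMSO and at 16.4 and 13.4 RPM in I-BET151, a log2 ratio of -0.36 with no overlap between groups. Only -0.23 kb of the difference of the window came from this region. The rest lay towards APOC3 and APOA5, and the region of the window with the lowest ratio among those listed in all 4 libraries was 8287 bp downstream of the APOA1 start and 572 bp from the APOC3 start (chr11:116828759-116829931), with 22.5 and 23.3 RPM in DMSO against 9.28 and 9.95 RPM in I-BET151, a log2 ratio of -1.25.

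A further region 7023 bp downstream, in a coding exon of APOC3, stood at 11.7 and 10.5 RPM in DMSO, was missing from I-BET151 replicate 1 and stood at 5.10 RPM in I-BET151 replicate 2. A region 10014 bp downstream stood at 10.2 and 7.83 RPM in DMSO and 4.00 RPM in I-BET151 replicate 1, and was missing from I-BET151 replicate 2. The lost region of the window lay 232 bp from the start of APOA5, an apolipoprotein gene of the liver, and was weak, with 59 and 55 reads in the DMSO libraries. At the start of ZPR1, which is no apolipoprotein gene, 22.6 and 22.0 RPM in DMSO compared with 18.0 and 20.8 RPM in I-BET151.

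APOB encodes the large structural protein of low-density lipoprotein and chylomicrons and had a single region in its window, at its start (chr2:21043459-21044419, summit in an intron 271 bp into the gene). The peak was 935 and 941 bp wide in DMSO and 592 and 602 bp wide in I-BET151, so that the means were 0.938 ± 0.00424 kb and 0.597 ± 0.00707 kb (SD, n = 2). The summit stood at 34.0 and 33.9 RPM in DMSO and at 20.2 and 22.3 RPM in I-BET151. The log2 ratio was -0.68, and neither width nor height overlapped between the groups. Input at this summit ranged from 25.8 to 52.2 times the genome level among the 4 libraries, and fold enrichment over input overlapped between the groups, at 6.15 and 7.63 in DMSO and 7.47 and 4.64 in I-BET151.

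AHSG encodes fetuin-A, a plasma glycoprotein of the liver, and lies on chromosome 3 (186613060 to 186621318, plus strand). No library had a peak within 3 kb of its start. A single region was assigned to it, 13325 bp upstream in intergenic sequence (chr3:186599489-186599963). DMSO replicate 1 listed it with 190 reads at the summit (23.9 RPM), an 18.4-fold enrichment and a -log10 q of 68.1, and DMSO replicate 2 with 200 reads (20.3 RPM), a 9.97-fold enrichment and a -log10 q of 37.8. Neither I-BET151 library listed it. At the input level seen in the DMSO libraries a summit of 41 reads (5.29 RPM) in I-BET151 replicate 1 or 43 reads (5.35 RPM) in replicate 2 would have passed the threshold, so the height in I-BET151 lay below those levels if the input was alike.

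This AHSG region was tall for a lost region. Its mean of 22.1 RPM in DMSO exceeded 95.3% of the 1308 lost regions whose reads were recovered. Among regions of both DMSO libraries with 20 to 30 RPM, 3.54% of 3309 were lost, against 40.2% of 1118 regions under 10 RPM. The window also held the promoters of TBCCD1 and DNAJB11, which all 4 libraries listed. The summits there stood at 33.2 and 31.2 RPM in DMSO against 25.8 and 26.7 RPM in I-BET151 for TBCCD1, and at 23.5 and 22.1 RPM against 18.0 and 19.0 RPM for DNAJB11, log2 ratios of -0.29 and -0.30. The neighbouring promoters were thus lower in both I-BET151 libraries as well, while remaining listed.

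SERPINA1 encodes alpha-1-antitrypsin, the main protease inhibitor of plasma. Its single region (chr14:94390411-94390822) had its summit in an untranslated exon, 2022 bp upstream of the canonical start and 10 bp from another annotated start of the gene. It stood at 9.30 and 9.05 RPM in DMSO (14.0- and 12.2-fold enrichment) and at 6.19 RPM in I-BET151 replicate 1 (3.96-fold), and was missing from I-BET151 replicate 2, where 22 reads (2.74 RPM) would have sufficed at the input level of DMSO and 37 reads (4.60 RPM) at that of I-BET151 replicate 1. The height was lower in the I-BET151 library that listed it, but the covered length of 0.307 kb there fell between the 0.412 and 0.300 kb of the DMSO libraries, so the groups overlapped in length.

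Among the intestinal genes, the groups overlapped at CDX2. It lies on chromosome 13 (27960918 to 27969315, minus strand), and peaks covered 10.1 and 9.74 kb of its window with DMSO against 10.9 and 9.53 kb with I-BET151. The means of 9.92 ± 0.255 kb and 10.2 ± 0.988 kb (SD, n = 2) differed by 0.31 kb, and the groups overlapped. Leaving out I-BET151 replicate 1 turned the difference to -0.39 kb. Of 8 regions assigned to CDX2, 7 were listed in all 4 libraries and 1, 8229 bp upstream, only in I-BET151 replicate 1.

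The tallest CDX2 region began just inside the start and spanned coding sequence (chr13:27967677-27969303). Its summit, 627 bp into the gene, stood at 46.9 and 41.4 RPM in DMSO and at 52.5 and 53.4 RPM in I-BET151, a log2 ratio of 0.26. The regions 2286 bp downstream and 1241 bp upstream of the start were likewise higher in both I-BET151 libraries, with 40.7 and 36.0 against 43.8 and 44.2 RPM and with 12.9 and 9.35 against 16.0 and 16.4 RPM. The regions 15464 and 6114 bp downstream and 8986 bp upstream overlapped between groups. Reads could not be recovered in DMSO replicate 2 for the region 8690 bp downstream, which stood at 26.5 RPM in DMSO replicate 1 and at 30.8 and 31.4 RPM in I-BET151.

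Across the genes' own 9 regions that all 4 libraries listed, the summit was lower in both I-BET151 libraries at 2 (APOA1 and APOB), higher at 3 (all CDX2), overlapping at 3 (all CDX2) and not resolved at 1. Of 9670 such regions over the genome, 30.9% were lower and 29.9% higher, and the median log2 ratio was 0.00. The CDX2 window reached the start of PDX1, the pancreatic regulator next to it, where the summit stood at 45.9 and 40.0 RPM in DMSO and 55.3 and 58.4 RPM in I-BET151. A lost region in an intron of URAD, 11328 bp upstream of CDX2, had 15.2 and 15.0 RPM in DMSO.

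**Figure D3:**
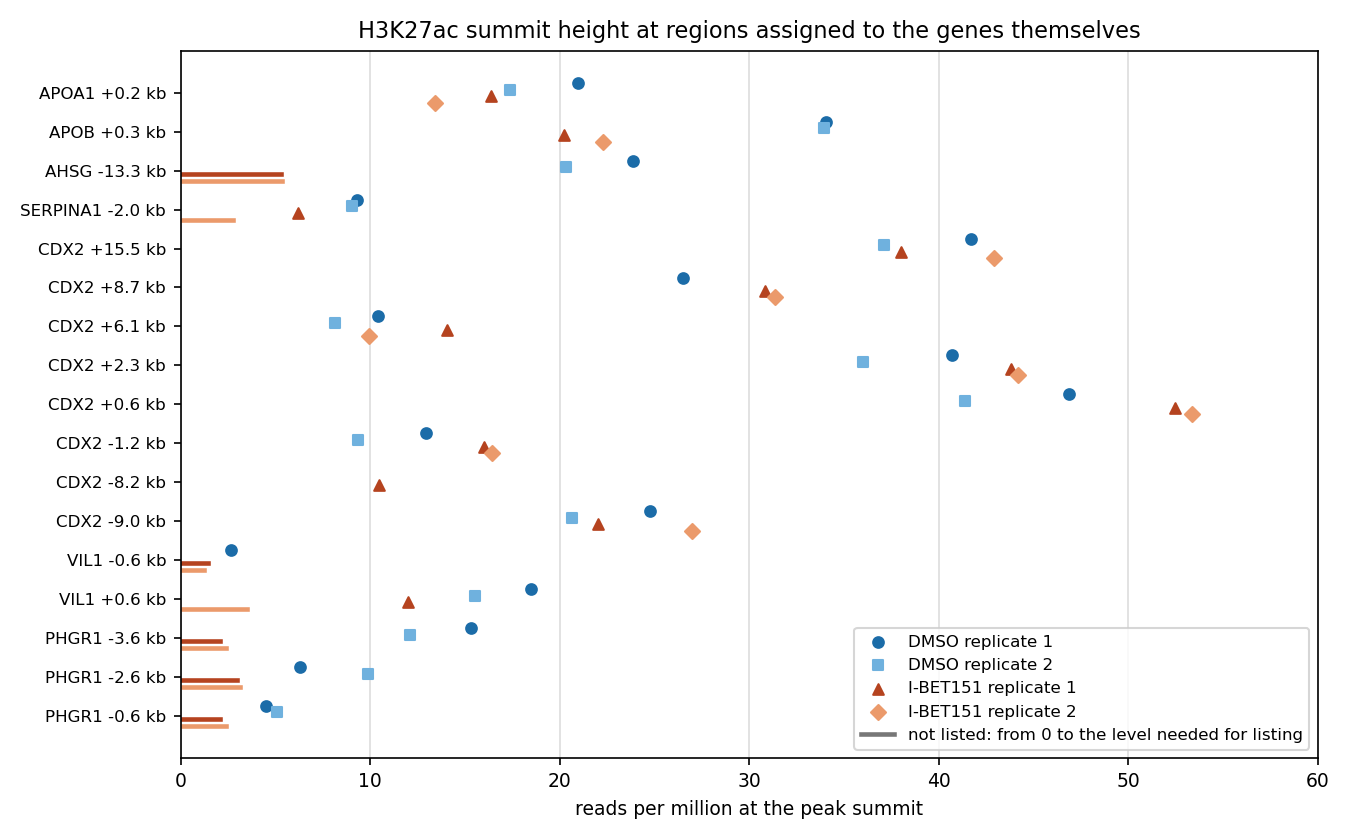
Summit height in RPM (horizontal axis) for the 17 regions assigned to the genes themselves, labelled by distance from the start, 1 point per listing library, with a bar from 0 to the level that would have been listed at the DMSO input level where an I-BET151 library missed a region of a DMSO library. The AHSG points at 23.9 and 20.3 RPM lie far to the right of the bars ending at 5.29 and 5.35 RPM, while the CDX2 points of both groups run side by side.

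VIL1 encodes villin, the actin-bundling protein of the brush border. Its region in the first part of the gene (chr2:218419535-218419978, intronic, 645 bp into the gene) stood at 18.5 and 15.6 RPM in DMSO and at 12.0 RPM in I-BET151 replicate 1, with enrichments of 31.5-, 15.3- and 9.35-fold. I-BET151 replicate 2 did not list it, where 28 reads (3.48 RPM) would have passed at the input level of DMSO and 31 reads (3.86 RPM) at that of I-BET151 replicate 1. The I-BET151 library with a peak was below both DMSO libraries, and the other had none.

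A second VIL1 region, 610 bp upstream, was listed in DMSO replicate 1 only, with 21 reads. Covered length over the window was 5.98 and 5.82 kb for DMSO against 5.39 and 4.92 kb, means of 5.90 ± 0.116 kb and 5.15 ± 0.332 kb (SD, n = 2). Most of this length was at CTDSP1 and SLC11A1. The region at the CTDSP1 start, the tallest there, stood at 57.2 and 45.1 RPM in DMSO and 55.7 and 55.0 RPM in I-BET151 and overlapped between groups. Counting only VIL1's own regions, the libraries had 0.716 and 0.372 kb with DMSO against 0.345 and 0 kb with I-BET151.

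PHGR1, a small histidine- and glycine-rich protein gene of gut epithelium, gave the largest difference of the 10 in covered length. It lies on chromosome 15 (40351033 to 40356434, plus strand). Peaks covered 4.48 and 4.28 kb of its window with DMSO against 1.899 and 1.889 kb with I-BET151, means of 4.38 ± 0.139 kb and 1.89 ± 0.00707 kb (SD, n = 2) and a difference of -2.49 kb. All 3 of its own regions were lost, so that its own coverage went from 1.67 and 1.51 kb to 0 in both I-BET151 libraries.

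The strongest PHGR1 region lay 3635 bp upstream of the start (chr15:40347146-40348087) and had 122 and 119 reads at the summit (15.3 and 12.1 RPM), with enrichments of 26.2- and 18.0-fold. At its input level 16 reads in I-BET151 replicate 1 or 19 in replicate 2 would have been listed. The region 2634 bp upstream had 50 and 97 reads, and 23 or 25 would have been listed. The region 606 bp upstream had 36 and 50 reads and a listing level of 16 or 19. The first of these thus had the widest margin, and the one nearest the start was among the weakest lost regions, above only 6.35% of them in mean RPM.

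Both lost regions at CCDC9B, 11205 and 10494 bp upstream of PHGR1, were weaker by enrichment, at 4.05- and 4.64-fold and at 4.26- and 3.14-fold in the DMSO libraries. A region 5992 bp upstream was listed in DMSO replicate 2 only. In contrast the promoters of INAFM2, KNSTRN and IVD in the same window were listed in all 4 libraries. INAFM2 stood at 20.5 and 21.8 RPM in DMSO and at 20.8 and 23.0 RPM in I-BET151, and KNSTRN at 18.6 and 16.0 RPM against 20.4 and 18.0 RPM, both overlapping. IVD was higher in both I-BET151 libraries, at 21.8 and 22.8 RPM against 20.2 and 20.7 RPM.

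Within 3 kb of the canonical start, 6 of the 10 genes had a peak in each DMSO library, 5 had one in I-BET151 replicate 1 and 3 in I-BET151 replicate 2. APOA1, APOB and CDX2 were those with a peak in all 4 libraries. VIL1 and SERPINA1 were missing from I-BET151 replicate 2, PHGR1 was missing from both I-BET151 libraries, and AFP, ALB, TTR and AHSG had none in any. I-BET151 replicate 2 had the shortest list of the 4. The same counts over all protein-coding genes were not taken, here or for the lists below, so nothing is read from them. With each list held to its 12312 strongest peaks, the 4 lost own regions of AHSG and PHGR1 still met the definition of lost.

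CpG content was then set beside these listings. The 7 own regions of AHSG, SERPINA1, VIL1 and PHGR1, each listed in at least 1 DMSO library and missing from at least 1 I-BET151 library, held 4 to 7 CpGs in the 300 bases around the summit. The 9 own regions listed in all 4 libraries held 8 to 46, where APOA1 with 8 and 1 CDX2 region with 9 were the lowest and APOB held 26. The CDX2 region listed in I-BET151 replicate 1 alone, and so missing from the other I-BET151 library too, held 23. With it the 8 regions missing from an I-BET151 library ran from 4 to 23 and overlapped the 9, and without it the ranges did not overlap. The VIL1 region 610 bp upstream was also missing from DMSO replicate 2. Regions of 1 gene share their surroundings, and 7 of the 9 belonged to CDX2. GC content overlapped, at 57.0% to 64.0% against 62.3% to 77.0%.

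**Figure D4:**
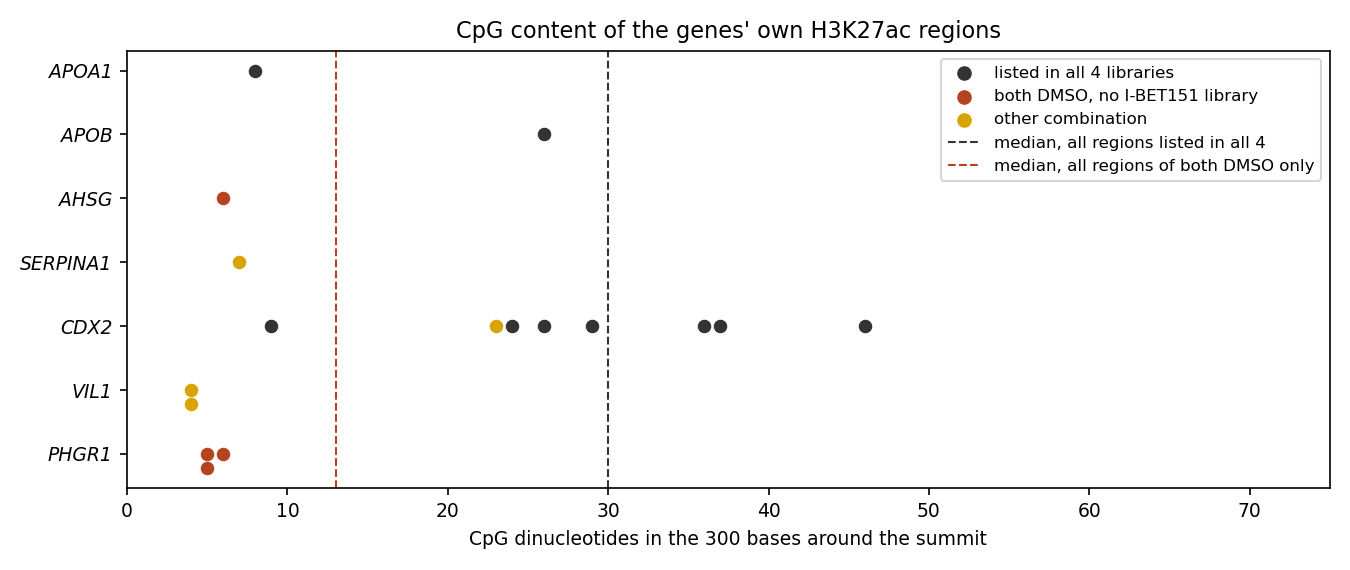
Number of CpG dinucleotides in the 300 bases around the summit (horizontal axis) for each region assigned to the genes themselves, coloured by the libraries that listed it, with dashed lines at the medians of all regions listed in all 4 libraries (30) and of all lost regions (13). The lost regions of AHSG and PHGR1 hold 5 or 6, and most CDX2 regions hold 23 or more.

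Over the genome, all regions had a median of 27 CpGs. Of the 1726 regions with 0 to 8 CpGs 21.7% were lost, compared with 15.5% of the 3183 with 9 to 20 and 4.50% of the 10843 with more than 20. Height was held within bounds next. Among regions of 20 to 30 RPM in DMSO, the range of the AHSG region, 14.3% of 84 regions with 0 to 8 CpGs were lost. The shares there were 5.17% of 387 with 9 to 20 and 3.00% of 2838 with more than 20. Among regions of 10 to 20 RPM, the range of the strongest PHGR1 region, 30.3% of 379 regions with 0 to 8 CpGs were lost. At that height the shares were 28.8% of 973 with 9 to 20 and 17.7% of 1930 with more than 20. The shares are descriptions over regions, which are not replicates.

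Short motifs of endoderm factors were searched on both strands of the 300-base summit windows, and none of the printed summit windows held one. Among the 17 own windows, the CEBP motif TTGCNNAA, present in 4.22% of all region windows, was matched in the CDX2 window 1241 bp upstream and the VIL1 window 610 bp upstream. The AP-1 motif TGANTCA, present in 3.68% of all windows, was matched in the PHGR1 window 2634 bp upstream. The HNF4 motif AAAGTCCA was matched in none of the 17, and in 0.470% of all windows. The FOXA motif TGTTTAC was likewise absent from the 17 and was found in 1.18% of all windows. The GATA motif was searched as AGATAA, with 2.38% of all windows matched. For the CDX motif the letters were TTTATNG, with 2.07%, and neither of these was in the 17. A match is a string of letters and not a bound site.

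In the promoters, taken from 250 bases before to 50 after the canonical start, 6 of the 10 genes matched at least 1 of the 6 motifs. The share of all promoters with at least 1 match was not taken, so nothing is read from this count. AHSG matched HNF4, CEBP and GATA, AFP matched CEBP and CDX, APOB matched CEBP and CDX, ALB matched CEBP, CDX2 matched FOXA, CDX and GATA, and PHGR1 matched GATA. APOA1, TTR, SERPINA1 and VIL1 matched none of these letters. Over all 20033 promoters, HNF4 was matched in 0.854%, CEBP in 8.11%, CDX in 7.89%, GATA in 7.17%, FOXA in 2.42% and AP-1 in 5.44%. The promoters of AFP, ALB, TTR and AHSG, which had no peak within 3 kb of the start in any library, held 1, 4, 3 and 3 CpGs. Those of the genes with such a peak held 17 at APOB, 16 at CDX2, 12 at SERPINA1, 6 at APOA1, 3 at PHGR1 and 2 at VIL1, so the ranges overlapped.

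Among 25 other hepatic genes, 17 had a peak in the window, of which 11 were lower in both I-BET151 libraries, 2 higher and 4 overlapping, with a median difference of -0.22 kb, beside 44.4% lower and 12.5% higher over all genes. With a 10 kb window 4 were lower and 1 higher, and 4 were higher with a 100 kb window or without DMSO replicate 2. For these settings neither the number of genes with a peak nor the shares over all genes were taken. APOC3 and APOA4 had the largest falls of that list, at -1.91 and -1.89 kb, and both share regions with APOA1. In the other hepatic windows the strongest lost or gained region of each gene named here lay at the start of a neighbour. For HPX, the heme carrier hemopexin, whose window held 2 lost regions, it was at TIMM10B, for TAT, tyrosine aminotransferase, at MARVELD3, and for APOM at LY6G5C. The gained regions in the windows of APOH and of the haptoglobin gene HP lay at CEP112 and DHODH. The 4 genes of this list with a peak within 3 kb of the start (APOC3, AMBP, F2 and VTN) had it in all 4 libraries and were lower in covered length in both I-BET151 libraries.

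Among 22 other intestinal genes, 14 had a peak in the window, of which 9 were lower in both I-BET151 libraries, 0 higher and 5 overlapping, with a median difference of -0.41 kb, beside the same 44.4% and 12.5% over all genes. With a 10 kb window 5 were lower, while 1 was higher with a 100 kb window and 2 without I-BET151 replicate 2. The shares over all genes were not taken for these settings. A peak within 3 kb of the start was present in at least 1 library for 7 of them and in all 4 for 2 (CDHR5 and EPS8L3). MUC2, the main secreted mucin of the gut, and PRAP1, a secreted protein of gut epithelium, had this peak in both DMSO libraries and neither I-BET151 library. Coverage at MUC2 was 4.59 and 4.00 kb with DMSO against 2.71 and 3.06 kb with I-BET151. At PRAP1 the values were 4.85 and 5.40 kb against 2.09 and 2.15 kb, although its strongest lost region lay at the start of PAOX. ISX, an intestinal homeobox gene, had a single region, 50993 bp from its start, with 75 and 87 reads in DMSO and none listed in I-BET151. CDHR5, a cadherin of the brush border, went from 4.26 and 4.67 kb to 2.52 and 2.95 kb, and its lost region lay at IRF7.

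All 17 endoderm regulators had a peak in the window, with 5 lower, 7 higher and 5 overlapping and a median difference of 0.06 kb, again beside 44.4% lower and 12.5% higher over all genes. The number higher was 11 without DMSO replicate 1, without I-BET151 replicate 2 or with pairing by replicate number. Shares over all genes were not taken for these settings either. HHEX, a homeobox gene of early liver and pancreas, had 4.08 kb in both DMSO libraries against 1.92 and 2.26 kb. HNF4A, a nuclear receptor of hepatic and intestinal epithelium, went from 4.33 and 3.52 kb to 2.85 and 2.94 kb, and its window held 2 lost regions. ONECUT1 went from 5.23 and 4.70 kb to 7.86 and 8.01 kb with 3 gained regions in the window, and GATA4 from 6.89 and 6.80 kb to 7.85 and 8.13 kb with 2. The difference between the lists was not tested.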

How the data were processed

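The values came from 4 deposited peak lists, 1 per H3K27ac library, with replicates not pooled. The authors aligned reads to hg38 with Bowtie2 2.2.5 and called peaks against input with MACS2 2.1.2 at default settings. The deposited lists give each peak's interval and summit, its fold enrichment over input (a ratio with a pseudocount of 1), and the -log10 p-value and -log10 q-value. Chromosome positions fitted hg38: 79.8% to 84.2% of peaks lay within 3 kb of a GENCODE 44 protein-coding start, against 10.9% to 11.6% after a shift of 1 Mb.

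Whole reads at a summit were recovered from the fold and the Poisson p-value within a tolerance of 0.01, for 98.2% to 98.5% of peaks. This step was tested on data simulated by the same formula. The depth was not tested. It takes the lowest input level of a list as the genome level, the shortest peak as the fragment length, and a fixed genome size. RPM values (reads-per-million) use the recovered ChIP depth, not enrichment, and take the summit of highest -log10 p in each library, which can differ in place. Covered length counts each base once. Sequences are from the hg38 genome. Python 3.11.15, pandas 2.3.3, SciPy 1.17.1, pysam 0.24.0 and matplotlib 3.10.9 were used.

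The members and lists were chosen with earlier results of these data known. Named genes were all members, and from each other list up to 5 genes with a lost or gained region outside the member windows, by the lower -log10 q of the pair, and up to 2 with the largest fall or rise without overlap. Other genes are named as neighbours or for a promoter peak, chosen after their values were seen. No test was run. Alternatives were other windows, stricter or equally long lists, other merging, weighting by fold enrichment, leaving out each library and pairing by replicate number, and, chosen after seeing the data, own regions only. The input libraries have no file here and were not analysed. Some genes of the lists that met the rule are not reported here.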

Additional observations from a re-analysis of the deposited data

How the results depend on the processing

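The DMSO lists were longer than the I-BET151 lists. With each list held to its 12312 strongest peaks, lost regions in the windows numbered 5 instead of 8. The 4 own regions of AHSG and PHGR1 were among them, and the 4 lost regions at neighbours no longer met the definition. The SERPINA1 region newly met it, as its I-BET151 replicate 1 peak, ranked 12449, was cut from the list. With these lists, over all genes with a peak 38.3% were lower and 15.4% higher, and over all regions 5.94% were lost and 4.69% gained. The summed difference in covered length of -5.89 kb became -3.89 kb with a 10 kb window, which leaves out the AHSG region and holds 4 lost regions, and -2.76 kb over own regions only. Weighted by fold enrichment it was -49.9 kb times fold. Leaving out 1 library gave -7.35 to -4.43 kb, 5 to 7 lower genes, 9 to 11 lost regions and 0 to 2 gained regions, the 2 without I-BET151 replicate 2. The CDX2 difference of 0.31 kb ranged from -0.39 kb without I-BET151 replicate 1 to 1.01 kb without I-BET151 replicate 2. In other settings 4 to 6 genes were lower, SERPINA1 joining where only peaks with a -log10 q of at least 5 or equal lists were kept. Shares over all genes and all regions were recomputed only for the equal lists, so the other counts have no matching background.

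The labels do not say whether libraries of the same number belong together. Differences between replicates correlated at 0.11 between groups over 15190 genes. With a single replicate difference in each group, this value cannot settle whether they do. With the replicate block, 6 genes were lower in both pairs, SERPINA1 added. The summed difference of -5.89 kb is the same with or without pairing by construction. Of 217 recomputed values, 179 stayed within 1.5 times or the replicate spread, 37 moved and 1 changed sign. Among the 37 is every nonzero value weighted by fold enrichment. Those are in kb times fold and were judged against values in kb, so their move reflects the unit. Among the 179 are values that could not change. These are the differences and region counts under pairing, and those of AFP, ALB and TTR wherever the window was not widened.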
